A study of Mus musculus with 15 samples.

Results

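The ligands of the vascular endothelial growth factor (VEGF) family and the receptors that bind them were followed through 8 genes, Vegfa, Vegfb, Vegfc, Vegfd, Pgf, Flt1, Nrp1 and Nrp2, among the 53465 genes of the count matrix. They were found by symbol, and all 8 were in the matrix. VEGF-A is the main growth factor of blood vessels, VEGF-B and placental growth factor (PlGF, from Pgf) are ligands of VEGF receptor 1, and VEGF-C and VEGF-D act mainly on lymphatic vessels through VEGF receptor 3. Flt1 encodes VEGF receptor 1, which is found on endothelial cells and on monocytes and macrophages and binds VEGF-A tightly, while the neuropilins Nrp1 and Nrp2 are co-receptors shared by VEGFs and class 3 semaphorins. Macrophages are known as a source of VEGF-A and VEGF-C in wounds and tumors.

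Mouse bone marrow-derived macrophages (BMDMs) were grown for 7 days from marrow in DMEM with 10% FBS and 20 ng/ml M-CSF, and RNA was sequenced 24 h after cytokine addition. The 5 groups of 3 libraries were control, IL-4 (10 ng/ml), IL-4 with IL-6 (10 and 40 ng/ml, IL-4+IL-6), IL-13 (40 ng/ml) and IL-6 with IL-13 (40 ng/ml each, IL-6+IL-13). No group received IL-6 alone, and IL-4 and IL-13 were used at different doses. The study's methods take BMDM marrow from mice aged 8 to 12 weeks, without naming the mice of the sequenced cultures. The replicates are described as biological, but nothing states that they came from different animals, so the p-values measure the spread between these cultures.

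The family was chosen by results of these data, among them the measured fall of Vegfc when IL-6 was added to IL-4. All comparisons of IL-4 and IL-4+IL-6 with each other or with control are therefore given as descriptions without a p. The tests were made on IL-13 and IL-6+IL-13, and, except for Vegfc, on IL-4 against IL-13 treatment. No p is given for Vegfd and Pgf where IL-4+IL-6 enters. Only in that group did all libraries of either gene reach the level of the filter on low counts (0.548 CPM). Nor is a p given for any member on the difference between the IL-6 effects beside IL-4 and beside IL-13. That difference contains the comparison that chose the family. Adjusted p-values are from the quasi-likelihood test of edgeR with Benjamini-Hochberg adjustment over 13938 genes, and a gene was called when its adjusted p was under 0.05.

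Libraries held 17001352 to 18918686 counted reads (median 18278484). Macrophage markers (Lyz2, Csf1r, Adgre1 and 5 others) were present in all groups, with a summed level of 10900 to 21100 normalized CPM (reads of a gene scaled to a common library size). Lyz2 was the highest of them in every group. They did not move alike, since Mertk went from 143 CPM in control to 8.27 to 17.9 CPM as treated group means, and Adgre1 from 844 to between 884 and 1450 CPM. The controls also held markers of other cell types that were near 0 after cytokine treatment, with summed levels of 503 to 592 against at most 3.75 CPM for 12 granulocyte markers and 16.9 to 21.7 against at most 0.609 CPM for 8 stromal markers. The 6 mast cell and basophil markers stood at 14.4 to 16 CPM in control against at most 2.19 CPM. Of 12 endothelial markers, which summed to 226 to 239 CPM in control and 80.7 to 134 CPM after treatment, Vwf was the highest and Cldn5 and Ptprb were at 0 in all groups. The sum of the 8 megakaryocyte and platelet markers rose with IL-6, from 78.3 to 82.5 CPM with IL-4 to 183 to 320 with IL-4+IL-6, and from 80.1 to 96.7 with IL-13 to 356 to 428 with IL-6+IL-13, most of it Pf4. In each of these comparisons 2 of the 8 were called higher, 1 lower and 5 not (median log2 0.13 beside IL-4 and -0.04 beside IL-13). Of all genes, 20.7% were called higher and 18.7% lower beside IL-4, and 12.1% and 13.5% beside IL-13. In control the 8 markers summed to 419 to 465 CPM, where others of the list were high as well (Itga2b at 114 CPM and Ppbp at 166 CPM, against at most 1.72 and 4.16 CPM as treated group means). The part of such cells in the differences reported here was not tested. In bulk RNA, fewer cells of a type and less RNA per cell cannot be told apart. Libraries of the same group also differed by gene length. Across the 13938 genes, the Spearman correlation between gene length and deviation from the group mean was -0.42 in IL-13 replicate 1 and -0.41 in IL-4+IL-6 replicate 2, against -0.19 to 0.38 in the other libraries. It bears most on the long members, Flt1 (13504 exonic bases), Nrp2 (11842) and Nrp1 (9785), which were lowest in these 2 libraries of their groups.

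The Vegfa gene lies at chr17:46016993-46032369 on the minus strand of GRCm38, Vegfb at chr19:6982473-6987651 (minus), Vegfc at chr8:54077606-54187096 (plus), Vegfd at chrX:164373378-164402650 (plus) and Pgf at chr12:85166635-85177790 (minus). The receptor gene Flt1 lies at chr5:147561604-147726011 (minus), Nrp1 at chr8:128358604-128503363 (plus) and Nrp2 at chr1:62703285-62818695 (plus). All are protein-coding, and their merged exons span from 1605 bases (Vegfb) to 13504 bases (Flt1). Counts were made per whole gene, so splice forms such as soluble VEGF receptor 1 or the VEGF-A isoforms cannot be told apart.

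The promoters of Vegfc, Vegfa and Flt1 are shown because these 3 members were lower with IL-6 beside either IL-4 or IL-13. Each sequence (RefSeq, GRCm38.p6) holds the 250 bases before the start annotated in RefSeq, read 5′ to 3′ on the gene's strand, at chr8:54077282-54077531, chr17:46032378-46032627 and chr5:147726012-147726261, respectively. For Vegfc and Vegfa that start lies upstream of the gene start given above. Vegfa has 2 promoters in the set, of which the most upstream is shown. Capitals mark the letters found in a search of both strands for TTCNNNGAA (a palindrome bound by STAT factors), the same palindrome with 1 more N (the form preferred by STAT6), ACGTG (the core of hypoxia response elements), TGACGTCA (the cAMP response element), TGANTCA (the AP-1 element) and TATAAA (the TATA box).
Vegfc: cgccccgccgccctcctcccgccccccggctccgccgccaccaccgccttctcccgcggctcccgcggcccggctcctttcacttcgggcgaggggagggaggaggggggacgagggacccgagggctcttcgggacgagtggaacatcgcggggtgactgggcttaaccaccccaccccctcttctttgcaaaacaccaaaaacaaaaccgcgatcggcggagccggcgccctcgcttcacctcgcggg
Vegfa: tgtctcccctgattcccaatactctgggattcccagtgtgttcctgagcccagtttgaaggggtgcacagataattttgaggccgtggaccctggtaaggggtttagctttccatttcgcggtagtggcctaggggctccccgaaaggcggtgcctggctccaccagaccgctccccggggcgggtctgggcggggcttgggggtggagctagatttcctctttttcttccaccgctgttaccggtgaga
Flt1: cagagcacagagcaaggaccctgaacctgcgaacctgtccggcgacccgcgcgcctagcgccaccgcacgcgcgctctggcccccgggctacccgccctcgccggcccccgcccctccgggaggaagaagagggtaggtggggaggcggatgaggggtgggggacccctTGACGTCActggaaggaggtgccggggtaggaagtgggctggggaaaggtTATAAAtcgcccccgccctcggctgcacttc
Only the Flt1 window held any of the 6 motifs, TGACGTCA from base 170 and TATAAA from base 220, with no overlap between them. Of 32851 promoter windows of this length, 1.55% held TGACGTCA and 12.4% TATAAA. The motifs without a match were in 7.02% (TTCNNNGAA), 5.85% (the palindrome with 1 more N), 16.6% (ACGTG) and 6.75% (TGANTCA) of the windows. The GC content was 71.6% in Vegfc, 70.4% in Flt1 and 59.2% in Vegfa, against a median of 52.4%. These matches are letters in short windows and were not related to the measured changes.

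Vegfc was low in control BMDMs, high after IL-4, intermediate after IL-13, and low again when IL-6 was present. The control libraries held 0.417, 0.332 and 0.617 CPM, and the IL-4 libraries 6.64, 8.36 and 5.57 CPM. With IL-4+IL-6 the values were 0.794, 0.295 and 0.461 CPM, a range that overlaps the control. IL-13 gave 4.02, 2.48 and 3.3 CPM, and IL-6+IL-13 gave 1.27, 1.14 and 0.834 CPM. No other neighbors in the order of the 5 groups overlapped. The behavior of Vegfc beside IL-4, which chose the family, was a log2 difference of 3.89 (SE 0.309) for IL-4 over control and of -3.71 (SE 0.305) for the addition of IL-6 to it. The IL-13 and IL-6+IL-13 libraries are not part of those comparisons, but the control libraries are. Vegfc rose by 2.83 on the log2 scale with IL-13 over control (SE 0.329, adjusted p = 1.17e-06). It fell by 1.59 when IL-6 was added to IL-13 (SE 0.284, adjusted p = 0.000372). With IL-6+IL-13 it was still higher than in control (log2 1.24, adjusted p = 0.00999). The p-values over control thus rest partly on libraries by which the family was chosen, whereas IL-6+IL-13 over IL-13 uses none of them. The fall with IL-6 was 2.11 larger on the log2 scale beside IL-4 than beside IL-13 (SE 0.445, no test). The counts behind these values were small, 25 reads in the 3 control libraries together, 377 with IL-4, 27 with IL-4+IL-6, 183 with IL-13 and 58 with IL-6+IL-13.

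**Figure D1:**
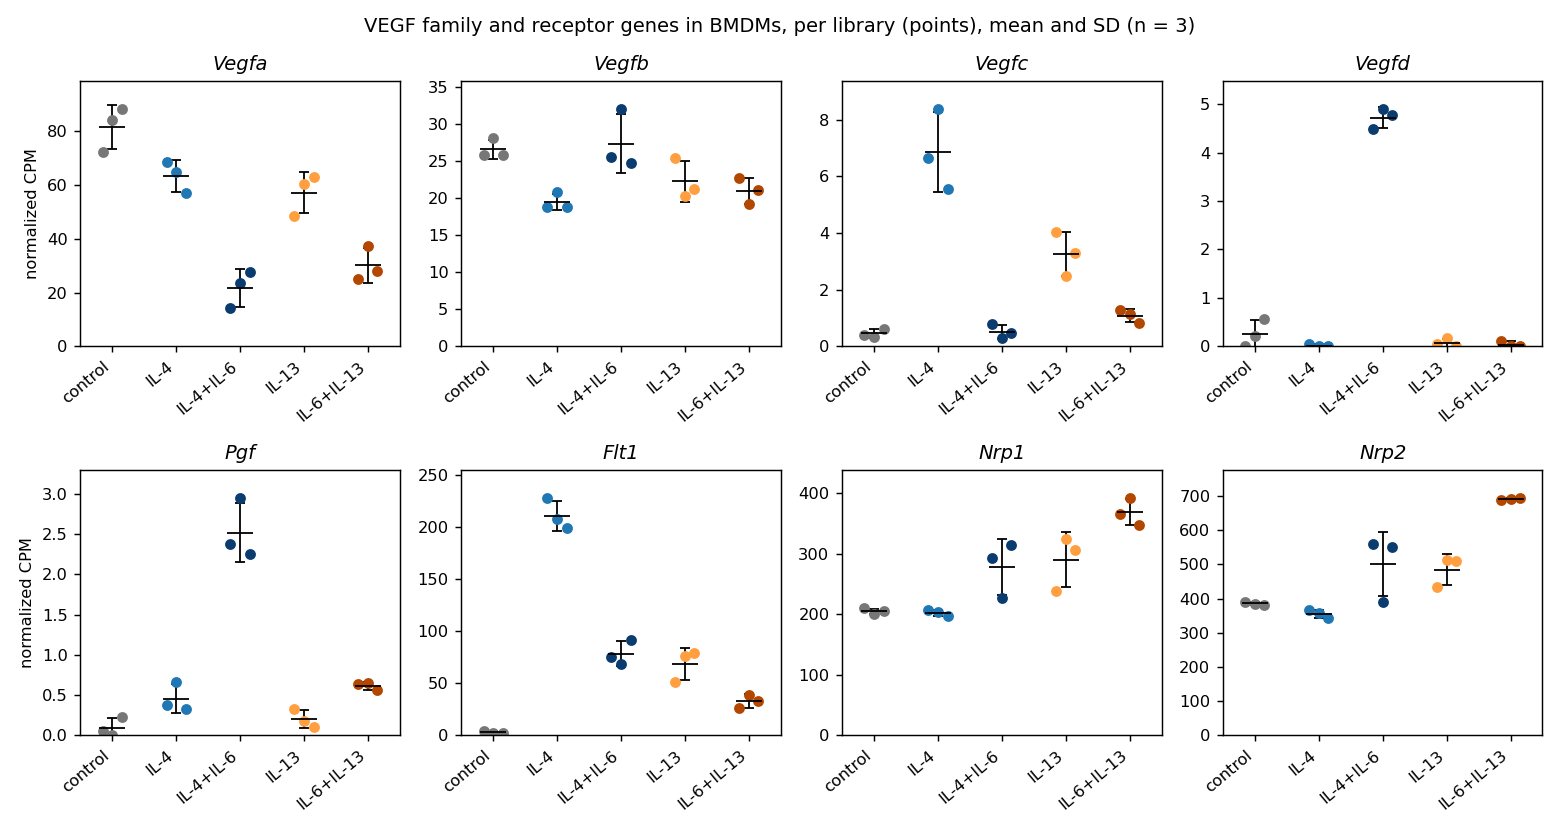
Normalized CPM of the 8 genes in each of the 15 libraries (points), with the mean and SD of each group of 3 (lines, cut at 0); each panel has its own linear axis. Vegfc is highest with IL-4 (5.57 to 8.36 CPM), Vegfd and Pgf stand out with IL-4+IL-6 alone, and Nrp2 is highest with IL-6+IL-13 (689 to 694 CPM).

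Vegfa, the most abundant ligand transcript in control BMDMs, decreased with IL-13 and decreased further when IL-6 was added. The controls held 72.2, 84.2 and 88.1 CPM, the IL-13 libraries 48.4, 60.2 and 62.9 CPM, and the IL-6+IL-13 libraries 25.2, 37.5 and 27.9 CPM, so that these 3 groups did not overlap. Vegfa fell by 0.51 on the log2 scale with IL-13 over control (SE 0.178, adjusted p = 0.0201) and by 0.92 with IL-6+IL-13 over IL-13 (SE 0.185, adjusted p = 0.00105). The first call was lost without control replicate 2 (-0.48), control replicate 3 (-0.45) or IL-13 replicate 1 (-0.37). The IL-4 groups were similar in shape, with 68.6, 64.9 and 57 CPM after IL-4 and 14.1, 23.6 and 27.7 CPM after IL-4+IL-6, a log2 difference of -1.54 (SE 0.189). Vegfa did not pass the test between IL-4 and IL-13 (log2 0.15, SE 0.179, adjusted p = 0.621) or between IL-4+IL-6 and IL-6+IL-13 (log2 -0.47, SE 0.193, adjusted p = 0.0735). The latter was passed without IL-4+IL-6 replicate 3 (-0.70) or IL-6+IL-13 replicate 1 (-0.60). The IL-6 effect beside IL-4 minus that beside IL-13 was -0.62 (SE 0.263, no test).

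Vegfb, a ligand of VEGF receptor 1 that is not known to respond to hypoxia, moved least among the ligands, between group means of 19.5 ± 1.14 (SD, n = 3) CPM with IL-4 and 27.4 ± 3.96 CPM with IL-4+IL-6. The control libraries held 25.8, 28.1 and 25.9 CPM, the IL-13 libraries 25.4, 20.3 and 21.2 CPM and the IL-6+IL-13 libraries 22.7, 19.2 and 21.1 CPM. IL-6+IL-13 over IL-13 was near 0 (log2 -0.09, SE 0.112, adjusted p = 0.649), whereas the IL-4 libraries (18.8, 20.8 and 18.8 CPM) lay below those with IL-4+IL-6 (25.6, 32 and 24.8 CPM), with a log2 difference of 0.49 (SE 0.112). The difference between both IL-6 effects was 0.58 (SE 0.158, no test), and 0.45 without IL-4+IL-6 replicate 2 or 0.46 without IL-13 replicate 1.

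Vegfd, the second lymphatic ligand, was detected at more than 10 reads per library in IL-4+IL-6 only. Its counts there were 79, 83 and 83 reads (4.48, 4.89 and 4.78 CPM), against 1, 0 and 0 with IL-4, 1, 3 and 0 with IL-13, 2, 0 and 0 with IL-6+IL-13, and 0, 4 and 10 in control. Every IL-4+IL-6 library lay above every other library. Pooled over the libraries of a group, the level was 4.71 CPM with IL-4+IL-6 (95% exact Poisson interval 4.14 to 5.34) and 0.0182 CPM with IL-4 (0.00046 to 0.101). The pooled level with IL-4+IL-6 stood to that with IL-4 alone at a ratio of 260 (95% exact binomial interval 46.2 to 10300), with ratios of 127 over IL-6+IL-13 (34.7 to 1050) and 18.5 over control (10.8 to 34.4). These intervals cover counting error only. Vegfd passed the filter on low counts only through the IL-4+IL-6 group, so its presence among the tested genes already requires that group to be high, and its differences from that group are given as a description. The 8 stromal markers summed to 0 to 0.23 CPM in the IL-4+IL-6 libraries, with Col1a1, Col1a2 and Col3a1 at 0. Lymphatic endothelial markers were at 6.46 to 8.47 CPM in that group against 1.02 to 2.18 CPM with IL-4, of which Pdpn made most (7.06 ± 1.24 CPM), while Prox1 was at 0 in both groups. The same markers were at 5.96 to 7.32 CPM with IL-6+IL-13, where Vegfd was near 0. The part of such cells in the level of Vegfd was not tested.

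Pgf, the gene of PlGF, was rare in all groups and highest with IL-4+IL-6. Its counts were 1, 0 and 4 reads in control, 7, 12 and 6 with IL-4, 42, 50 and 39 with IL-4+IL-6, 6, 3 and 2 with IL-13, and 11, 12 and 10 with IL-6+IL-13. In both settings all libraries with IL-6 lay above all without it, although the IL-6+IL-13 libraries (0.556 to 0.651 CPM) overlapped those with IL-4 alone (0.327 to 0.664 CPM). The log2 difference was 2.46 (SE 0.395) for IL-6 co-addition to IL-4, with a pooled ratio of 5.55 (95% exact binomial interval 3.6 to 8.89). For IL-6+IL-13 over IL-13 the pooled ratio was 3.12 (1.54 to 6.84) and the log2 difference 1.61 (SE 0.539, adjusted p = 0.0357). This call was lost without any of 5 of the 6 libraries, with log2 differences of 1.51 (IL-13 replicate 2), 1.29 (IL-13 replicate 3), 1.57, 1.56 and 1.66 (IL-6+IL-13 replicates 1, 2 and 3). Between IL-4+IL-6 and IL-6+IL-13, Pgf was higher with IL-4+IL-6 by a log2 difference of 2.03 (SE 0.379). No test is given, since IL-4+IL-6 was the only group with all libraries at the level of the filter, although 6 libraries reached it.

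Levels of different genes can be compared per length with the deposited FPKM values. Summed over the 5 ligand genes, the level was 37.5 ± 2.34 FPKM (SD, n = 3) in control, 30.3 ± 2.4 with IL-4, 29.4 ± 0.708 with IL-13, 23.8 ± 2.24 with IL-4+IL-6 and 20.3 ± 0.751 with IL-6+IL-13. Both groups with IL-6 lay below every library without it. Vegfa and Vegfb made up nearly all of the sum in control, with 52.9% and 46.2%. The share of Vegfa was 20% with IL-4+IL-6 (14.8% to 26%) and 33.8% with IL-6+IL-13 (28.2% to 40.9%), while that of Vegfb was 67.8% and 63%. Vegfc reached its largest share with IL-4, 9.3% against 0.518% in control, and was 4.64% with IL-13. With IL-4+IL-6, Vegfd (7.82%) and Pgf (3.45%) together took a larger share than Vegfc (0.879%), which reverses the order among the minor ligands found with IL-4 alone.

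**Figure D2:**
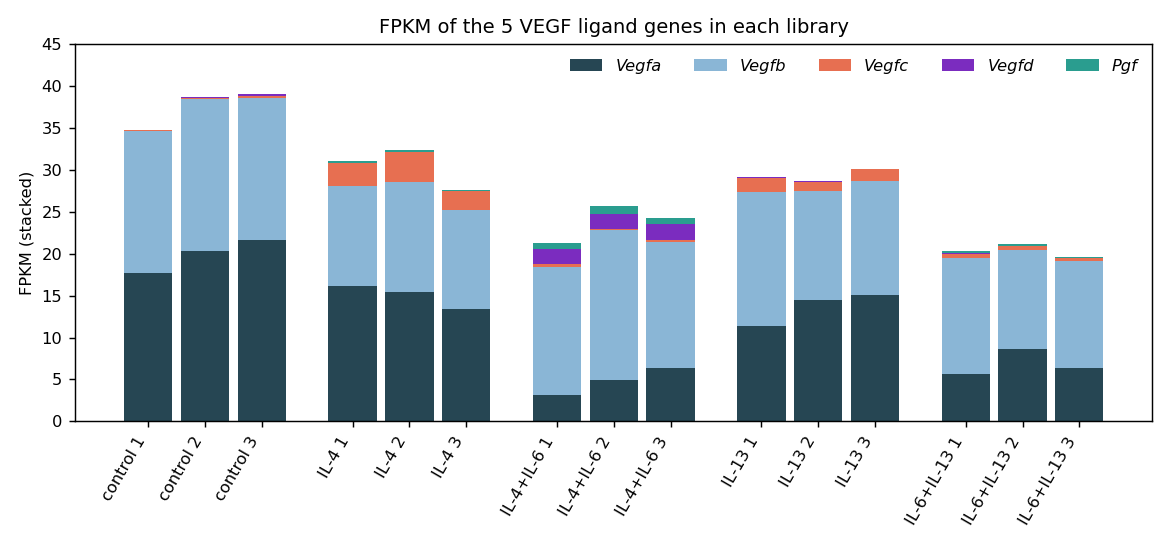
Deposited FPKM of the 5 ligand genes, stacked, in each of the 15 libraries. The height falls from 34.8 to 39 FPKM in control to 19.7 to 21.1 FPKM with IL-6+IL-13, the Vegfc segment is widest with IL-4, and the Vegfd segment is visible with IL-4+IL-6.

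Among the receptors, Flt1 covered the widest range. Control libraries held 3.86, 2.16 and 2.3 CPM, IL-4 libraries 228, 208 and 199 CPM, and IL-13 libraries 50.7, 75.8 and 79.2 CPM. The values were 75.5, 68 and 91.3 CPM with IL-4+IL-6 and 26.3, 38.8 and 33.2 CPM with IL-6+IL-13. IL-4 thus had the highest and control the lowest level, and IL-4+IL-6 and IL-13 were the only neighbors in this order that overlapped. Flt1 rose by 4.62 on the log2 scale with IL-13 (SE 0.227, adjusted p = 2.48e-11) and fell by 1.06 when IL-6 was added to IL-13 (SE 0.172, adjusted p = 0.000139). The level with IL-6+IL-13 remained above control by 3.55 (SE 0.232, adjusted p = 5.66e-10). IL-4 gave more Flt1 than IL-13 (log2 1.62, SE 0.167, adjusted p = 2.96e-06), and IL-4+IL-6 more than IL-6+IL-13 (log2 1.26, SE 0.173, adjusted p = 2.67e-05), at unequal doses of IL-4 and IL-13. Beside IL-4, IL-6 lowered it by a log2 difference of -1.43 (SE 0.166), and the difference between both IL-6 effects was -0.37 (SE 0.237, no test). None of the tested Flt1 calls was lost in any alternative.

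Nrp1 and Nrp2 were the most abundant members per length in all groups, Nrp2 first (30.4 to 57 FPKM as group means) and Nrp1 next (20.9 to 36.8 FPKM). Nrp1 was at 210, 201 and 205 CPM in control, 239, 325 and 307 CPM with IL-13, and 366, 392 and 348 CPM with IL-6+IL-13. The groups followed each other without overlap, with log2 differences of 0.50 for IL-13 over control (SE 0.111, adjusted p = 0.000924) and 0.34 for IL-6+IL-13 over IL-13 (SE 0.111, adjusted p = 0.0282). The second call was lost without IL-13 replicate 1 (0.21), the library with the strongest length trend, and without IL-6+IL-13 replicate 1 (0.34) or 2 (0.29). Nrp2 took the same course, from 391, 385 and 381 CPM in control to 433, 512 and 510 CPM with IL-13 and 689, 692 and 694 CPM with IL-6+IL-13. Its differences were 0.33 (SE 0.102, adjusted p = 0.0102) and 0.51 (SE 0.102, adjusted p = 0.000971), and neither call was lost in any alternative.

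With IL-4 the neuropilins stayed near their control level. The libraries held 207, 203 and 197 CPM of Nrp1 and 365, 359 and 343 CPM of Nrp2, with log2 differences from control of -0.02 (SE 0.111) and -0.12 (SE 0.102). Both were lower with IL-4 than with IL-13, Nrp1 by 0.52 (log2 -0.52, SE 0.111, adjusted p = 0.00402) and Nrp2 by 0.45 (log2 -0.45, SE 0.102, adjusted p = 0.00702). Gene length moved with these small differences. Long genes were relatively lower with IL-4 than with IL-13 (Spearman correlation of length with log2 difference -0.27 over 13938 genes) and than in control (-0.19). With the length trend of each library removed, a setting chosen after seeing the data, IL-4 over control became 0.38 for Nrp1 and 0.33 for Nrp2 (a description, like all values of IL-4 over control), while the median of all genes shifted by 0.142. In the same setting IL-13 over control was 0.77 for Nrp1 and 0.63 for Nrp2, with a shift of 0.113. The difference between IL-4 and IL-13 was then -0.39 for Nrp1 and -0.30 for Nrp2, both still called.

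With IL-4+IL-6, Nrp1 was at 293, 226 and 315 CPM and Nrp2 at 559, 391 and 551 CPM, higher than with IL-4 by a log2 difference of 0.46 (SE 0.111) and 0.49 (SE 0.102). Replicate 2 was the lowest for both genes and is the library in which long genes were low. IL-6+IL-13 exceeded IL-4+IL-6 for Nrp1 (log2 -0.41 for IL-4+IL-6 over IL-6+IL-13, SE 0.111, adjusted p = 0.0096) and for Nrp2 (log2 -0.47, SE 0.102, adjusted p = 0.00204). The difference between both IL-6 effects was 0.11 for Nrp1 (SE 0.156) and -0.02 for Nrp2 (SE 0.144), without a test. Summed over Flt1, Nrp1 and Nrp2, the receptor level was 56.1 ± 1.25 FPKM in control, 67.1 ± 2.73 with IL-4, 72.6 ± 15.5 with IL-4+IL-6, 77.7 ± 10.6 with IL-13 and 96.2 ± 3.39 with IL-6+IL-13. Flt1 made 23.6% of it with IL-4, 7.63% with IL-4+IL-6, 6.65% with IL-13, 2.46% with IL-6+IL-13 and 0.381% in control.

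Counted over the 8 genes, IL-13 over control gave 5 calls, 4 higher (Vegfc, Flt1, Nrp1 and Nrp2) and 1 lower (Vegfa), where 60.1% of all tested genes were called (29.0% higher and 31.1% lower). The median log2 difference was 0.42 over the 8 genes and -0.02 over all genes. Vegfb (log2 -0.25, SE 0.11, adjusted p = 0.0564), Pgf (1.06, SE 0.769, adjusted p = 0.246) and Vegfd (-1.74, SE 1.02, adjusted p = 0.151) were not called. Vegfb was called with DESeq2 or upper-quartile factors (both -0.26) and with a filter of 1 CPM (-0.27). Each of the 3 also passed without 1 library, Vegfb without IL-13 replicate 1 (-0.33), Pgf without control replicate 3 (2.60) and Vegfd without control replicate 1 (-2.33).

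IL-6+IL-13 over IL-13 gave 6 calls, 3 higher (Pgf, Nrp1 and Nrp2) and 3 lower (Vegfa, Vegfc and Flt1), where 25.6% of all genes were called (12.1% higher and 13.5% lower). The count was 4 to 5 when a library was left out, with Pgf and Nrp1 as the genes that were lost. It was 5 in a fit of only the libraries of these groups, where 3230 of 12730 genes were called. The median log2 difference was -0.46 over the 8 genes and 0.01 over all genes. IL-6+IL-13 over control gave 7 calls, 5 higher and 2 lower, against a background of 64.0% (31.9% higher and 32.1% lower). Vegfd was not called there (log2 -2.57, SE 1.16, adjusted p = 0.063), but was without control replicate 1 (-3.17) or IL-6+IL-13 replicate 1 (-5.23). The call of Vegfb (log2 -0.34, SE 0.111, adjusted p = 0.0131) was lost without control replicate 2 (-0.30) or IL-6+IL-13 replicate 2 (-0.27).

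In the comparisons that chose the family, 5 members were called for IL-4 over control, where 68.0% of all genes were called (32.1% higher and 35.9% lower). When IL-6 was added to IL-4, 8 were called against 39.4% (20.7% higher and 18.7% lower), and for IL-4+IL-6 over control 6 against 72.9% (35.4% higher and 37.5% lower). Nothing is read from these 3 counts. Between IL-4 and IL-13, 4 were called against 12.8% of all genes, Vegfc (by its known change, without a p) and Flt1 higher with IL-4 (5.16% of all genes) and Nrp1 and Nrp2 lower (7.61%). Between IL-4+IL-6 and IL-6+IL-13, 7 members were past the threshold, all but Vegfa, where 31.3% of all genes were (15.8% higher and 15.5% lower). The call of Vegfb there (log2 0.38, SE 0.111, adjusted p = 0.014) was lost without IL-4+IL-6 replicate 2 (0.26) or IL-6+IL-13 replicate 2 (0.31). For the difference between both IL-6 effects, 3 members (Vegfb, Vegfc and Vegfd) were past it, where 7.64% of all genes were (3.22% higher and 4.42% lower). Nothing is read from the counts between the IL-4 and the IL-13 setting either, since all of them hold Vegfc by its known change. Those with IL-4+IL-6 also hold Vegfd, which passed the filter only through that group. The count of IL-4+IL-6 over IL-6+IL-13 also holds Pgf, whose libraries all reached the filter in IL-4+IL-6 only. The comparisons over control share the control libraries, also with IL-4 over control, in which Vegfc was already known. These libraries held the granulocyte, stromal, mast cell and megakaryocyte markers given above. The part of those cells in the differences from control was not tested. The comparison of IL-6+IL-13 with IL-13 uses no control library. In a fit without the controls its log2 differences were called for 5 of the 8 genes, without Nrp1, where 3246 of 13208 genes were called.

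**Figure D3:**
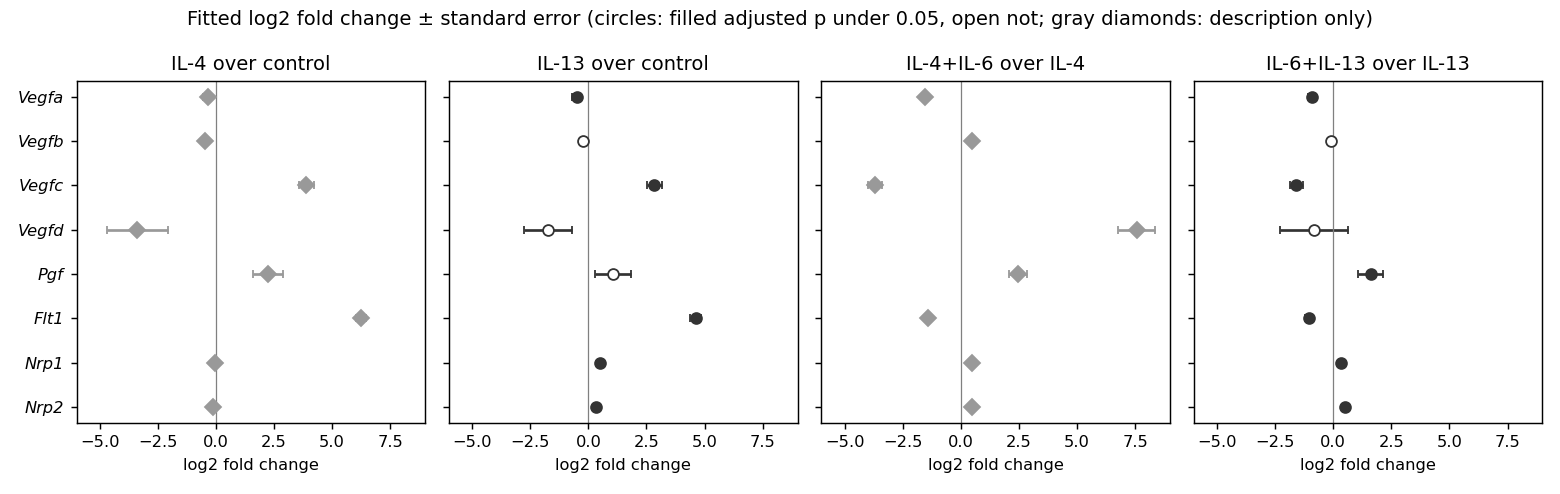
Fitted log2 fold change of the 8 genes with its standard error in 4 comparisons; filled circles were called (adjusted p under 0.05), open circles were not, and gray diamonds mark the comparisons that chose the family, without a call. Vegfc and Flt1 lie to the right of 0 with IL-4 and IL-13 and to the left when IL-6 is added to either, Pgf, Nrp1 and Nrp2 lie to the right when IL-6 is added, and Vegfd differs between the IL-6 panels (7.56 and -0.83).

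Of the signaling receptors of the family beyond the 8 genes, Kdr was present in all groups and Flt4 was near 0. Kdr, which encodes VEGF receptor 2, was at 11.6 to 15.5 CPM in control, 6.99 to 11.7 with IL-4, 10.7 to 16.5 with IL-4+IL-6, 17.8 to 22.9 with IL-13 and 39.3 to 39.7 with IL-6+IL-13. It rose with IL-13 over control (log2 0.70, SE 0.172, adjusted p = 0.00216) and again with IL-6+IL-13 over IL-13 (log2 0.91, SE 0.163, adjusted p = 0.000373). The 12 endothelial markers, which include Kdr, summed to 91.2 to 118 CPM with IL-13 and 87.7 to 102 CPM with IL-6+IL-13. Of the others, Vwf fell from 85.3 ± 11.5 to 52.2 ± 6.77 CPM (log2 -0.71, SE 0.145, adjusted p = 0.00126), Pecam1 rose from between 0.258 and 0.394 CPM to between 1.04 and 1.19 CPM (log2 1.77, SE 0.46, adjusted p = 0.00796), and Emcn, Erg, Cldn5 and Ptprb were at 0 in both groups. The part of endothelial cells in the level of Kdr was not tested. Flt4, the VEGF receptor 3 gene, did not pass the filter and had group means of 0.0547 to 0.182 CPM, so a response of the receptor of VEGF-C and VEGF-D was not detectable at this depth.

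Of the 7 class 3 semaphorins, which compete with VEGFs for the neuropilins, only Sema3c passed the filter. It was at 0.126 ± 0.0609 CPM in control, 6.46 ± 0.803 with IL-4, 22.1 ± 1.35 with IL-4+IL-6, 4.22 ± 0.669 with IL-13 and 12.2 ± 2.58 with IL-6+IL-13. IL-13 raised it over control (log2 4.98, SE 0.339, adjusted p = 1.36e-09), and IL-6 raised it further beside IL-13 (log2 1.52, SE 0.165, adjusted p = 1.56e-06). Among the 5 plexins that signal with neuropilins, 2 fell with IL-6+IL-13 over IL-13, Plxnd1 (log2 -0.80, SE 0.104, adjusted p = 1.22e-05) and Plxna1 (log2 -0.68, SE 0.166, adjusted p = 0.00509), and none rose, where 13.5% of all genes were called lower and 12.1% higher. Their median was -0.42, against 0.01 over all genes. Beside IL-4, 3 of the 5 were called lower with IL-6 and 0 higher, against 18.7% and 20.7% of all genes.

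The proteins that process VEGF-C and VEGF-D gave 2 higher and 1 lower call among 5 tested genes in IL-6+IL-13 over IL-13, with a median of 0.29, where 12.1% of all genes were called higher and 13.5% lower. Furin (log2 0.42, SE 0.0866, adjusted p = 0.00127) and Pcsk7 (log2 0.29, SE 0.0898, adjusted p = 0.0249), proprotein convertases that cleave the precursors, rose. Ccbe1, a cofactor of VEGF-C cleavage, fell (log2 -1.53, SE 0.285, adjusted p = 0.000531), from 2.48 ± 0.513 to 0.854 ± 0.212 CPM. Beside IL-4, 1 of the 5 genes was called higher and 1 lower, against 20.7% and 18.7% of all genes.

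Vegfa is a classical target of the hypoxia-inducible factors (HIF), and genes of that pathway were counted beside it. In IL-6+IL-13 over IL-13, 4 of 8 HIF pathway genes rose and 0 fell (median 0.06), against 12.1% and 13.5% of all genes, among them Epas1, which encodes HIF-2α (log2 0.54, SE 0.103, adjusted p = 0.000649), Arnt (log2 0.39, SE 0.0879, adjusted p = 0.00262) and the prolyl hydroxylase gene Egln2 (log2 0.38, SE 0.0896, adjusted p = 0.00425). Of 16 other hypoxia target genes, 2 rose and 0 fell, Ndrg1 (log2 2.79, SE 0.134, adjusted p = 5.3e-11) and P4ha2 (log2 0.74, SE 0.192, adjusted p = 0.00785), and the median was 0.13 against 0.01 over all genes. This count is near the share of all genes called higher (12.1%). Beside IL-4, 6 of the 16 were called higher with IL-6 and 2 lower, and 4 of the 8 HIF pathway genes higher and 1 lower, against 20.7% and 18.7% of all genes. In IL-13 over control, where Vegfa fell, 12 of these 16 genes rose and 1 fell, with a median of 0.89 against -0.02 over all genes, where 29.0% of all genes were called higher and 31.1% lower. Ndrg1 was the target that fell (log2 -0.58, SE 0.135, adjusted p = 0.00131), like Vegfa.

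Among 19 tested genes of VEGF receptor signaling, 4 rose and 4 fell with IL-6+IL-13 over IL-13 (median 0.05), where 12.1% of all genes were called higher and 13.5% lower. Sphk1, a sphingosine kinase, went from 0.667 ± 0.354 to 8.11 ± 0.839 CPM (log2 3.60, SE 0.253, adjusted p = 7.22e-09), and the adaptor gene Gab1 from 3.61 ± 0.914 to 22.5 ± 2.58 CPM (log2 2.64, SE 0.154, adjusted p = 6.44e-10). Prkcb, a protein kinase C gene, fell (log2 -1.08, SE 0.126, adjusted p = 3.57e-06). Of 9 other angiogenic ligands and inhibitors, 3 fell and 0 rose (median -0.29, same background), Pdgfb (log2 -1.86, SE 0.105, adjusted p = 3.81e-10), a growth factor gene for pericytes, Angptl4 (log2 -1.41, SE 0.266, adjusted p = 0.000594) and Vash2 (log2 -0.57, SE 0.19, adjusted p = 0.0343). With IL-6 beside IL-4, 9 of the 19 signaling genes were called higher and 6 lower, and 6 of the 9 angiogenic genes lower and 0 higher, where 20.7% of all genes were called higher and 18.7% lower.

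**Figure D4:**
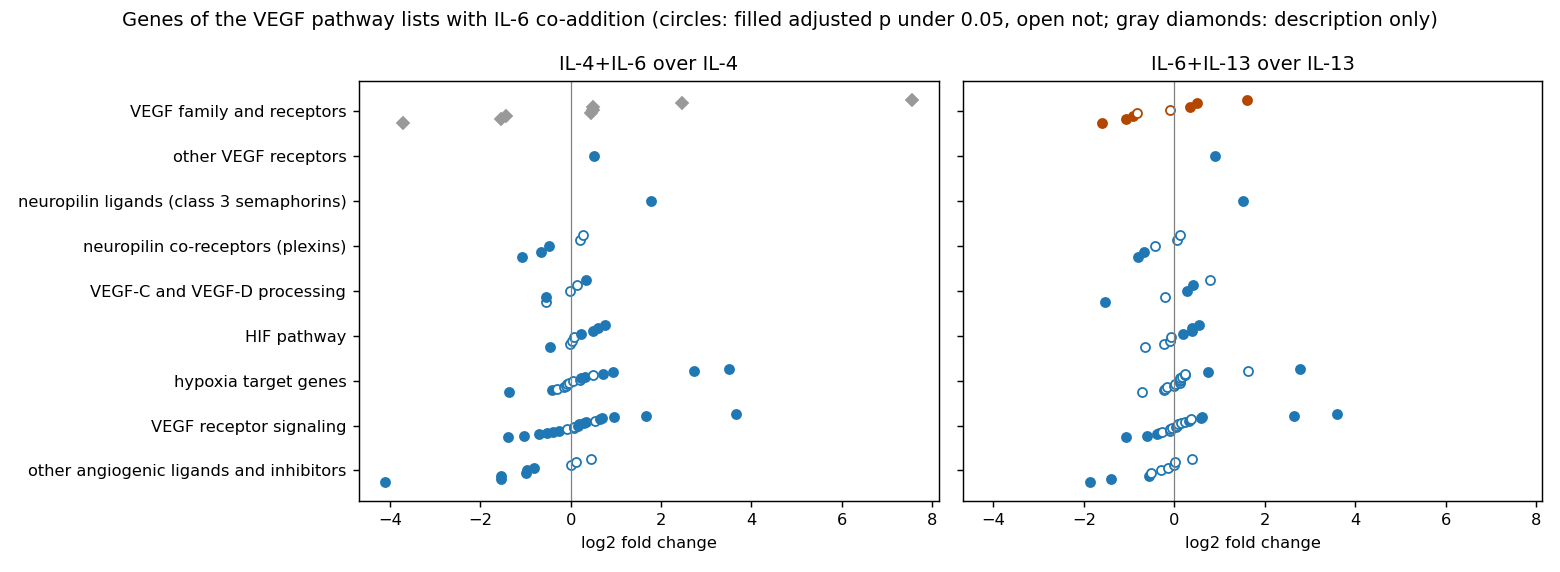
Log2 fold change with IL-6 co-addition for the 8 members (gray diamonds beside IL-4, without a call, and brown circles beside IL-13) and the tested genes of 8 related lists (blue circles); filled circles were called (adjusted p under 0.05). The listed angiogenic ligands and inhibitors that were called lie to the left of 0 in both panels, and Sema3c lies to the right (1.77 and 1.52).

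Over the 15 libraries, Nrp1 and Nrp2 had the highest correlation among the members (Pearson r = 0.97 of log2 CPM). Both are long genes, and the part of the length trend of the libraries in this correlation was not tested. The lowest was that of Vegfa and Pgf (r = -0.84), and Vegfc and Flt1 had r = 0.68. Among all tested genes, those most like Vegfc were Cd36 (r = 0.955), a scavenger receptor, Rmdn2 (0.953) and Lpl (0.953), lipoprotein lipase. Cd36 had group means of 1293 CPM in control, 2965 with IL-4, 1171 with IL-4+IL-6, 2350 with IL-13 and 1416 with IL-6+IL-13, the same order as Vegfc except between control and IL-4+IL-6. Flt1 was closest to Fam129b (0.991), Gnb4 (0.991) and Rgs16 (0.989), and Vegfa to Abcd2 (0.964), Ckap2l (0.963) and Cep70 (0.962). The genes most like Pgf were Mgat1 (0.956), Chil4 (0.955) and Gas8 (0.950), and those most like Vegfd were 2610300M13Rik (0.942), Enpp2 (0.929) and Nabp1 (0.925). Like Vegfd, 2610300M13Rik and Enpp2 were near 0 outside IL-4+IL-6 (group means of at most 0.0185 and 0.241 CPM, against 0.924 and 0.905 CPM). Their r with Vegfd thus rests mainly on that group. For Nrp2 the list was Ankrd50 (0.979), Sipa1l2 (0.974) and Nrp1, for Nrp1 it was Nrp2, Rapgef5 (0.968) and 2610507B11Rik (0.962), and for Vegfb it was 2410006H16Rik (0.933), Mpv17 (0.911) and Atp6v0b (0.909). The choice of these genes depended on the measure, since 2 of the 24 were kept with Spearman correlation and 2 with the 5 group means.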

How the data were processed

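RNA of 15 BMDM libraries was sequenced by a service company. Per the labels, the submitters' processing notes name CASAVA, Bowtie2 2.2.3, HISAT2 2.1.0, TopHat2, DESeq2 and GRCm38, without their roles, and the counting tool, its strand setting and read filters are not given in the sources used here. The authors deposited raw counts for 53465 Ensembl genes. They also deposited FPKM values for 26080 genes, which equal the count over gene length and summed count (checked on 268061 values, the lengths of a gene differing between libraries by at most 7.35e-07 in relative terms). Symbols were matched for 53274 identifiers and 53360 were found in GENCODE M21 (GRCm38), whose merged exon lengths equal those in the FPKM values for the 8 genes. Of the listed genes, Aldoa has 2 identifiers and was taken from the one with more reads. Of overlapping genes, only Mir1903 shares exon bases with a member (80 with Nrp1), and it had no reads.

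All 15 libraries entered a single count model of edgeR 4.0.16 under R 4.3.3 (filterByExpr with a minimum count of 10, TMM factors, estimateDisp, glmQLFit and glmQLFTest), over 9 contrasts. The standard error is the absolute log2 fold change over the square root of F. Normalized CPM used TMM factors, and correlations were taken on its log2 after adding a prior count of 2. Alternatives were DESeq2 1.42.0, upper-quartile factors, other filters, a replicate block, fits of the compared groups and the omission of each library. A fit without controls and the removal of a length trend (natural spline, 5 degrees of freedom per library) were added after seeing the data. The test procedure was tested on simulated data. The members, the pathway and marker lists and the rule for named genes (of each list, Kdr and Flt4 and up to 3 called genes with the largest change in IL-6+IL-13 over IL-13, and the 3 genes most correlated with each member) were chosen with earlier results of these data known, so the p-values are not corrected for that choice. Replicate libraries differed by more than counting noise (chi-square per gene 2.6 to 43). Gene counts of 17001352 to 18918686 reads per library leave Vegfd, Pgf and Flt4 with few reads, and counting intervals are 95% exact.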

Additional observations from a re-analysis of the deposited data

Results flagged for a closer look

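The effect of IL-6 differed between the IL-4 and the IL-13 setting for 4 of 64 tested genes of the related lists (6.25%, against 7.64% of all genes) by the test of that difference in edgeR, of which Plxna4 and Mapk3 fall outside the rule for named genes and were chosen after their values were seen. For Gab1 the log2 difference was -0.98 (SE 0.209, adjusted p = 0.00633), with a rise of 1.66 beside IL-4 and of 2.64 beside IL-13. For Pdgfb it was -2.24 (SE 0.172, adjusted p = 4.07e-07). Pdgfb libraries held 38.7 to 45.8 CPM with IL-4 and 2.3 to 2.71 CPM with IL-4+IL-6, against 50.7 to 57 CPM with IL-13 and 13 to 16.6 CPM with IL-6+IL-13. For Plxna4, a plexin gene, it was -1.21 (SE 0.237, adjusted p = 0.00323), and for Mapk3, which encodes the kinase ERK1, -0.44 (SE 0.0926, adjusted p = 0.00515). For 3 members the same difference was past the threshold and is given as a description, because it contains the comparison that chose the family. It was -2.11 for Vegfc and 0.58 for Vegfb. It was 8.39 for Vegfd, which passed the filter only through IL-4+IL-6, had at most 3 reads per library in IL-4, IL-13 and IL-6+IL-13 and was no longer past the threshold without IL-13 replicate 2 (7.14).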

How the results depend on the processing

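Of 1005 log2 fold changes of members under the alternatives, 934 kept their direction and their side of the threshold, 38 lost a call, 19 gained one and 14 changed sign, none of the latter for a called value. The number of called members kept within 1.5 times its value in 126 of 127 cases. The exception was the difference between both IL-6 effects, with 5 members called without a filter on low counts in place of 3. Leaving out a library gave 4 to 6 called members for IL-13 over control, 4 to 5 for IL-6+IL-13 over IL-13, 6 to 8 for IL-6+IL-13 over control, 5 to 7 for IL-4+IL-6 over IL-6+IL-13 and 2 to 4 for the difference between both IL-6 effects.

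The sign changed for values that were not called. Nrp1 in IL-4 over control was 0.06 without a filter, 0.02 with the libraries of the compared groups only, -0.04 to 0.04 with a library left out, above 0 without control replicate 1, IL-4 replicate 2 or IL-4 replicate 3, and 0.38 with the length trend removed, where Nrp2 was 0.33. Vegfb in IL-4+IL-6 over control was -0.03 with upper-quartile factors and -0.05 to 0.11 with a library left out, lowest without IL-4+IL-6 replicate 2, and Vegfc there was -0.24 to 0.49, lowest without IL-4+IL-6 replicate 1. In IL-6+IL-13 over IL-13, Vegfb was -0.16 to 0.01, highest without IL-13 replicate 1, and Vegfd -3.53 to 0.41, highest without IL-13 replicate 2. The Nrp2 difference between both IL-6 effects was -0.12 to 0.13, highest without IL-4+IL-6 replicate 2 and 0.04 without IL-13 replicate 1. The cause of these sign changes was not tested.

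Same-numbered libraries did not deviate together (30 pairs, correlation -0.276 to 0.163, 3 over 0.1, and 2 of 15 libraries correlating best with their number). This cannot decide whether they share an animal or a batch, since the deviations also carry the length trends of the libraries. With a replicate block, 5 members were called in IL-6+IL-13 over IL-13, without Pgf (1.60), where 3368 of 13938 genes were called. The number called in the other comparisons was as without the block, although Vegfa (-0.48) gained and Vegfc (-1.06) lost a call in IL-4+IL-6 over IL-6+IL-13. The spread between replicates (biological coefficient of variation) was 4.48% in control, 4.54% with IL-4, 14.8% with IL-4+IL-6, 10.9% with IL-13 and 7.39% with IL-6+IL-13, which limits the small neuropilin differences. With TMM scaling, the summed receptor level of the control was 53.8 per kilobase in place of 56.1 FPKM.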
